A study of Rattus norvegicus with 8 samples.

Results

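The cytosolic ribosomal protein genes were examined in H9c2 cells, a rat embryonic heart myoblast line, flown to the International Space Station or grown on Earth as ground controls. Members were taken by symbol: those starting with Rpl or Rps followed by a number, the P stalk genes Rplp0 to Rplp2, and Rpsa, with S6 kinases such as Rps6ka1 left out. This gave 68 genes, 42 of the large and 26 of the small subunit, of 15037 genes with a symbol. Each had a single probe set among the 23188 tested, and the rule itself uses no measured value.

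The study crossed gravity regime with nanoceria, cerium oxide nanoparticles coated with serum protein and given at 100 µg/ml. The groups were nanoceria-treated cells in space (2 arrays), untreated cells in space (1 array), nanoceria-treated cells on ground (3 arrays) and untreated cells on ground (2 arrays, replicates 1 and 3). All cells carried the same handling: seeding at 35000 per cm2, differentiation medium low in serum, a pouch warmed to 27 °C, a 37 °C incubator from day 7 and fixation on day 10. Ground cultures followed later and were given the temperature course recorded on the flight, so gravity regime cannot be told apart from culture run. The cells were not sorted, and in bulk RNA fewer cells of a type and less RNA per cell cannot be told apart.

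The ribosome is built from a small subunit, which reads the message, and a large subunit, which joins amino acids and passes the growing chain through an exit tunnel. Its proteins are made in near equal numbers, and their messages are among the most abundant in growing cells. Many of these messages begin with a C and a run of pyrimidines, the terminal oligopyrimidine (TOP) tract, through which mTOR signalling and the protein Larp1 control their translation. In muscle, ribosome content is known to follow growth and wasting.

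A tract of this kind was a shared feature that the symbol rule did not use. Of the 68 members, 58 had a start site in the RefSeq table of rat promoters (GRCr8). The sense strand was searched for a C within 5 bases of the annotated start followed by 4 or more C or T. It was found in 38 of 58 members (65.5%), against 17.0% of 33469 promoters and 16.0% of those of genes named on the array. With the C exactly at the annotated start, the counts were 23 of 58 (39.7%) against 2.63%. The windows below cover 15 bases on each side of the start, with the tract in capitals where there is one. They show members that differed most between regimes, with a tract (Rpl39, Rps3a, Rps27) and without (Rps6, Rpl5), beside members that hardly differed, with a tract (Rplp0, Rplp1) and without (Rpsa, Rps2).
Rpl39, chrX:121195882-121195911, minus strand: tcttctaatcgcgttCTTCCggcctgtcct
Rps3a, chr2:173827028-173827057, minus strand: gagttgtacttccgcCCTTTTggctctcag
Rps27, chr2:177964592-177964621, minus strand: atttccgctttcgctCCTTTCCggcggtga
Rps6, chr5:106420526-106420555, minus strand: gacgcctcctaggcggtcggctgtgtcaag
Rpl5, chr14:1995211-1995240, minus strand: actctctttcccacgtcgcttgcgtcctgg
Rplp0, chr12:46718376-46718405, minus strand: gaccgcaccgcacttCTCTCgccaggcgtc
Rplp1, chr8:71290858-71290887, minus strand: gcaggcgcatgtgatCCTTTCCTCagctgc
Rpsa, chr8:128728864-128728893, plus strand: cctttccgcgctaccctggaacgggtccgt
Rps2, chr10:14251833-14251862, plus strand: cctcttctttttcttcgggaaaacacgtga
A match describes the letters at an annotated start and not a measured message end. A window without one says only that no such tract begins within 5 bases of that start. The windows of Rps6, Rpl5, Rpsa and Rps2 hold runs of C and T that begin farther upstream. In Rps2 this run reaches the annotated start.

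Other motifs were searched on either strand from 250 bases before to 50 after the start, including any overlap with the tract. CTTTCC was present in 48.3% of the members' promoters and 26.4% of all, and in 26.3% of those of genes named on the array. CCGGAAG, the core bound by ETS family factors such as GABP, was present in 29.3% of members' and 8.75% of all promoters, and in 13.2% of the 12435 promoters of genes named on the array. AAGATGGC, the core of the YY1 motif, was present in 8.62% of members' and 3.17% of all promoters, and in 4.22% of those of genes named on the array.

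RefSeq holds other entries named after 67 of the 68 members, up to 36 for Rps2 and 17 for Rpl39. These were counted by symbol alone, which can take in distinct paralogues such as Rpl22l1. Sequences of entries and probes were not compared, so signal from any near-identical copy cannot be told apart here from that of the parent gene. Intensity is a relative measure within each probe set, so levels are compared between arrays and not between genes. The labelled cell type was checked against markers: over the 8 arrays the mean log2 intensity of 9 muscle genes ran from 6.34 to 8.11, of 6 fibroblast genes from 11.36 to 11.73, of 5 cardiac genes from 6.60 to 7.66, of 5 epithelial genes from 6.09 to 6.54, of 5 endothelial genes from 4.76 to 5.09, and of 5 immune genes from 5.00 to 5.23. Of the muscle regulators, Myog ran from 6.25 to 9.89 and Myod1 from 6.97 to 8.19. Among the epithelial genes the keratin Krt8 ran from 10.42 to 12.15, whereas Epcam lay between 3.75 and 4.19. The muscle regulator Myf5 lay between 4.01 and 4.75, and no detection limit was at hand to say whether such dim probe sets were above background. Array median intensities ran from 107 to 117.

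The members varied little between arrays. Their median standard deviation (SD) over the 8 arrays was 0.149 on the log2 scale, against 0.249 for the brightest 1 in 10 probe sets and 0.25 for all. The brightest 1 in 10 begin at a mean log2 intensity of 10.02, whereas the member means reach 13.76. Brightness was not matched more closely, and its part in the low spread was not tested. The large subunit had a median SD of 0.149 and the small subunit one of 0.135. Rps28 was the steadiest member, with values from 13.18 to 13.31 and an SD of 0.0397. An SD under 0.1 was found for 18 members and one of 0.2 or more for 20.

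Each gene's deviation from its own mean over the 8 arrays showed how the members moved as a body. Their median deviation was −0.006 and 0.131 in nanoceria-treated space cells and 0.083 in untreated space cells. It was 0.094, −0.12 and −0.091 in nanoceria-treated ground cells, and 0.032 and −0.105 in untreated ground cells. The regimes therefore overlapped: ground nanoceria replicate 1 lay within the range of the space arrays and held the highest value of 26 members, while the other 2 arrays of its group held the lowest value of 25 and 18. On the same ground array the brightest 1 in 10 probe sets of the array lay 0.119 above their mean, against −0.061 to 0.029 on the other arrays. Its part in the members' level was not tested.

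**Figure D1:**
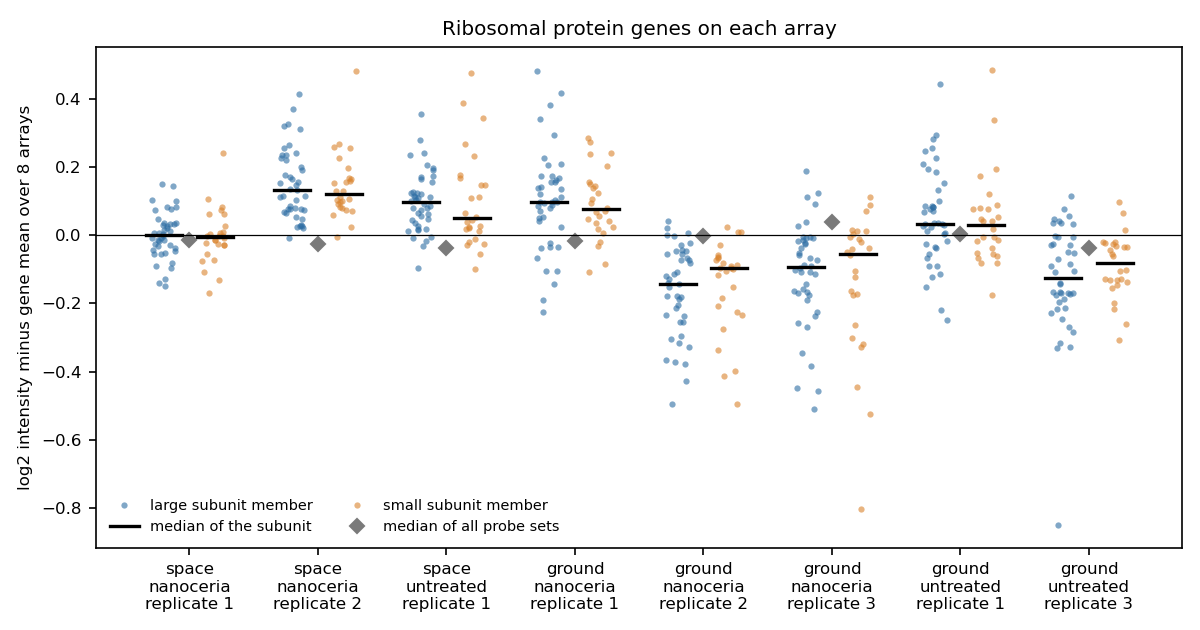
Deviation of each of the 68 members from its own mean over 8 arrays (log2 scale, y axis) on each array (x axis), by subunit, with the median of each subunit (bars) and of all probe sets (diamonds). The medians of both subunits have the same sign on every array. Ground nanoceria replicate 1 (members' median 0.094) lies with the higher space arrays rather than with its own group.

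The large and the small subunit had nearly equal mean deviations on each array, but their median deviations lay farther apart on some. On the untreated space array the medians were 0.097 for the large and 0.05 for the small subunit. On ground nanoceria replicate 3 they were −0.093 and −0.052, the opposite order to the means. The mean deviation of the large subunit minus that of the small subunit was 0.003 and 0.007 in nanoceria-treated space cells and −0.002 in untreated space cells, against 0.009, −0.011 and 0.025 in nanoceria-treated ground cells and 0.008 and −0.038 in untreated ground cells. This difference of means varied within groups by an SD of 0.0208, whereas the median deviation of all members varied by 0.107. Between regimes the subunits' median log2 differences were 0.119 and 0.102, apart by 0.017. This gap is between medians, and its own spread was not computed. The gap was −0.008 with the replicate number as a block and 0.065 without space nanoceria replicate 1.

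Space was compared with ground over both treatments by an additive limma fit. The members measured slightly higher in space: 64 of 68 (94.1%) had a difference above 0, against 41.3% of all probe sets. Their median log2 difference was 0.112 (1.08-fold), while the median was −0.005 for the brightest 1 in 10 probe sets and −0.044 for all. The standard error (SE) of a single difference had a median of 0.13, and the differences ran from −0.08 to 0.42. No member passed an adjusted p of 0.05, nor did any probe set (0%), and the smallest adjusted p of a member was 0.398. At an unadjusted p under 0.05, 5 members (7.35%) were higher in space, against 5.3% of all probe sets, and 0 were lower, against 4.26%. The share of single-gene calls was thus near the background, and members share the same 8 arrays, so 64 like signs are not separate observations.

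When 1 array was left out the median ran from 0.072, without ground nanoceria replicate 2, to 0.161, without ground nanoceria replicate 1. The count of 5 was 1 without space nanoceria replicate 2 or without the untreated space array, 8 without ground nanoceria replicate 1. Without ground untreated replicate 3 it was 3. It was 0 with the replicate number as a block, with a median of 0.056.

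**Figure D2:**
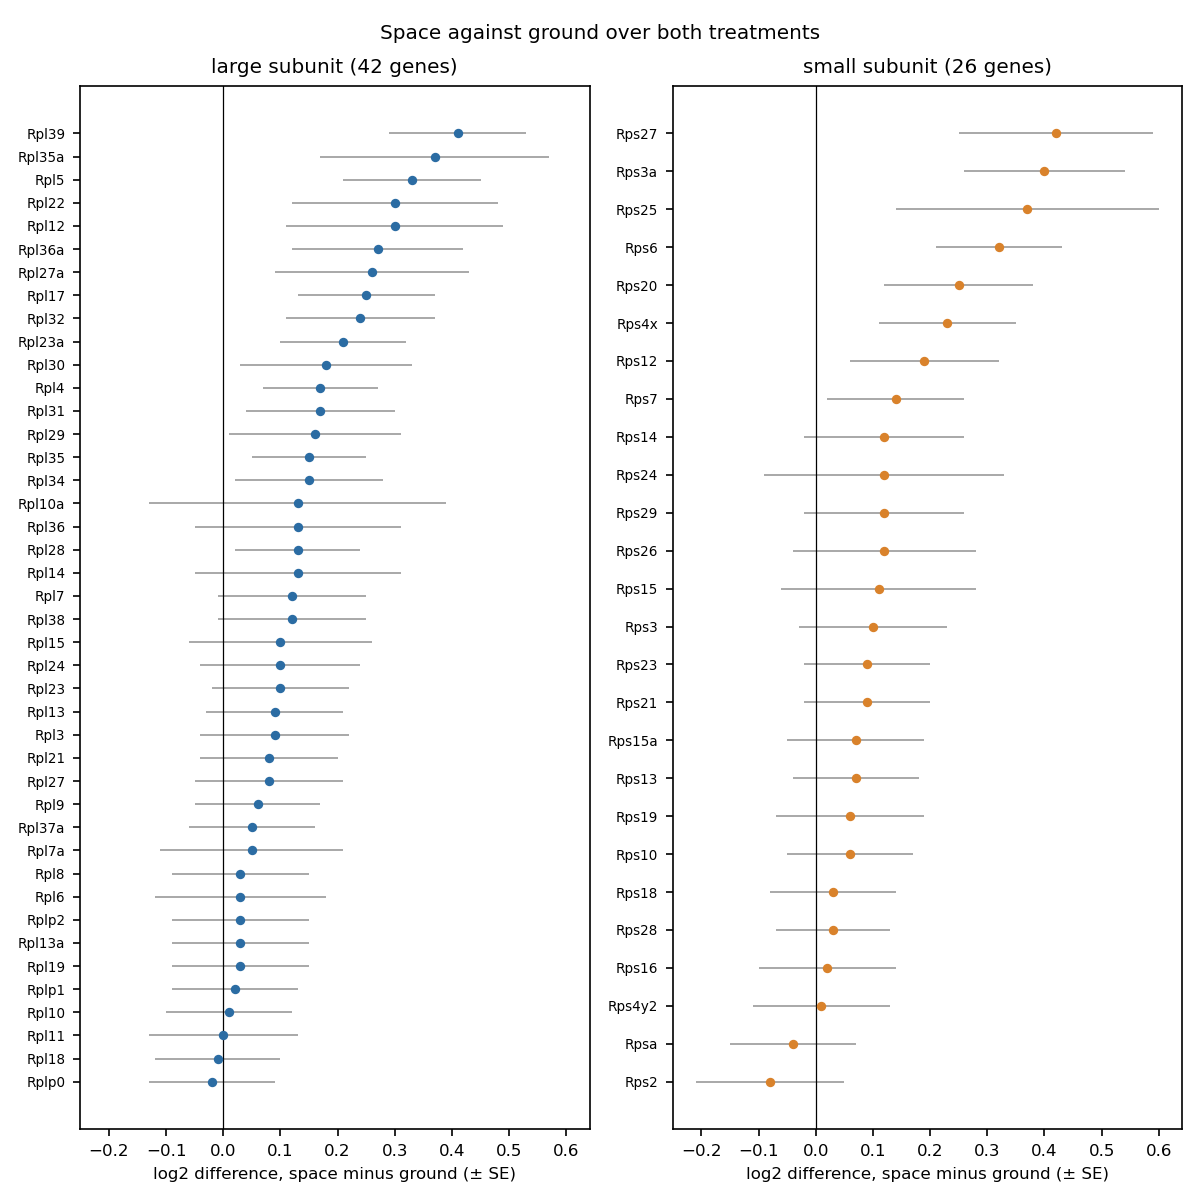
Log2 difference, space minus ground over both treatments (x axis, points with bars of ± SE from limma), for the 42 large subunit genes and the 26 small subunit genes, ordered by size. Nearly all points lie right of 0 but most bars reach or cross it, with Rpl39 (0.41) and Rps27 (0.42) farthest right and Rps2 (−0.08) farthest left.

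Rpl39, a very small protein that lines the exit tunnel, had the smallest p. Its log2 intensity was 13.37 and 13.46 in nanoceria-treated and 13.58 in untreated space cells, against 13.00, 12.92 and 12.77 in nanoceria-treated and 13.42 and 13.28 in untreated ground cells. The treated ground arrays were low. Of the untreated ground arrays, replicate 1 reached into the space range and replicate 3 lay below it. The difference was 0.41 ± 0.12 (SE, limma adjusted p = 0.398).

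Rps3a, a small subunit protein near the exit of the message, measured 12.14 and 12.41 in nanoceria-treated and 12.63 in untreated space cells. It measured 12.07, 12.06 and 11.71 in nanoceria-treated and 12.10 and 12.12 in untreated ground cells. All 3 space arrays lay above all 5 ground arrays, the lowest of them by little. The difference was 0.40 ± 0.14 (SE, limma adjusted p = 0.438).

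Rps6, the substrate of S6 kinase whose phosphorylation follows mTOR activity, measured 12.86 and 12.93 in nanoceria-treated and 13.12 in untreated space cells. It measured 12.67, 12.66 and 12.45 in nanoceria-treated and 12.77 and 12.75 in untreated ground cells. Here too the regimes did not overlap, with a difference of 0.32 ± 0.11 (SE, limma adjusted p = 0.449).

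The only other member whose space arrays all lay above the ground arrays was Rpl28, named after its values were seen, at 12.93 and 12.90 in nanoceria-treated and 12.95 in untreated space cells, against 12.66 to 12.87 on ground. These 3 members compare with 1.97% of all probe sets. In the other direction there were 0 members, against 3.14% of all probe sets.

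Rpl5 and Rpl11 carry the 5S ribosomal RNA into the large subunit, and outside the ribosome both bind the p53 regulator Mdm2. Rpl5 measured 12.83 and 12.85 in nanoceria-treated and 12.96 in untreated space cells, against 12.49, 12.50 and 12.41 in nanoceria-treated and 12.89 and 12.51 in untreated ground cells. Ground untreated replicate 1 lay among the space arrays. The difference was 0.33 ± 0.12 (SE, limma adjusted p = 0.484). Its partner Rpl11 differed by 0.00 ± 0.13.

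Rps27, a zinc finger protein of the small subunit, had the largest difference and a wide spread. It measured 11.33 and 11.75 in nanoceria-treated and 11.50 in untreated space cells, against 11.35, 10.87 and 10.95 in nanoceria-treated and 11.39 and 11.01 in untreated ground cells. The regimes overlapped, and the difference was 0.42 ± 0.17 (SE, limma adjusted p = 0.501).

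By part of the ribosome the differences were as follows, and none passed the test. Of all 68 members, 94.1% were above 0 in space, with a median of 0.112. Of the proteins that line the exit tunnel or surround its mouth, where targeting and folding factors dock, all 7 measured were above 0 in space, with a median of 0.173. They were Rpl39, Rpl17 (0.25 ± 0.12), Rpl23a (0.21 ± 0.11), Rpl4 (0.17 ± 0.10), Rpl31 (0.17 ± 0.13), Rpl35 (0.15 ± 0.10) and Rpl19 (0.03 ± 0.12). The P stalk, which recruits the elongation factors, was level, at −0.02 ± 0.11 for its base Rplp0, 0.02 ± 0.11 for Rplp1 and 0.03 ± 0.12 for Rplp2. Near the peptidyl transferase centre, Rpl3 differed by 0.09 ± 0.13 and Rpl10, a late-joining protein, by 0.01 ± 0.11.

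On the small subunit, the proteins of the message entry and decoding side gave 0.10 ± 0.13 for Rps3, 0.09 ± 0.11 for Rps23, 0.11 ± 0.17 for Rps15 and −0.08 ± 0.13 for Rps2. In the head and platform, Rps14 gave 0.12 ± 0.14, Rps19 0.06 ± 0.13 and Rpsa, also known as a laminin receptor, −0.04 ± 0.11. Rps4x, kept in the same role list, gave 0.23 ± 0.12. The 4 members with a difference below 0 were thus Rps2, Rpsa, Rplp0 and Rpl18 (−0.01 ± 0.11), each by less than its SE. Of 14 measured genes whose human forms are mutated in Diamond-Blackfan anaemia, a failure of red cell production, none was below 0. Their median was 0.12 and the highest, Rps27, stood at 0.42. This is near the 68 members as a whole, of which 94.1% were above 0 with a median of 0.112. Rpl26, Rpl41 and Rps27a of the role lists were not named on the array here.

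Members with a TOP-like tract within 5 bases of the annotated start had a median difference of 0.125 (38 genes), against 0.066 for those without (20 genes). The middle 50% of the values overlapped, from 0.066 to 0.217 with a tract and from 0.026 to 0.107 without. Among the windows shown, Rplp0 and Rplp1 carry a tract and were level, and Rps6 and Rpl5 carry none at the annotated start and were higher. This is a description of the members with no test.

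Other genes of the translation apparatus were set beside the members. For space against ground over both treatments, 41.3% of all probe sets were above 0, with a median of −0.044. A list of 18 genes with known TOP messages held translation factors and also Tpt1, Npm1, Nap1l1 and Hnrnpa1. Of these 18, 15 were above 0 in space, with a median of 0.166. At an unadjusted p under 0.05, 3 were higher, against 5.3% of all probe sets. The initiation factor subunits Eif2s3 and Eif3e differed by 0.46 ± 0.14 and 0.68 ± 0.28, and the growth-related Tpt1 by 0.31 ± 0.13. Of 34 nucleolar factors that assemble ribosomes, 11 were above 0, with a median of −0.07. Bysl, needed for small subunit maturation, was lower by this estimate (−0.68 ± 0.20), and the kinase Riok1 and the nucleolar GTPase Gnl3 were higher (0.62 ± 0.20 and 0.59 ± 0.21). Of 13 genes of RNA polymerase I and its factors, 3 were above 0, with a median of −0.122, and the largest subunit Polr1a had −0.52 ± 0.13. Of 15 genes of mTOR and S6 kinase control, 7 were above 0, with a median of −0.034. In limma 0 genes of these lists passed the adjusted threshold.

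**Figure D3:**
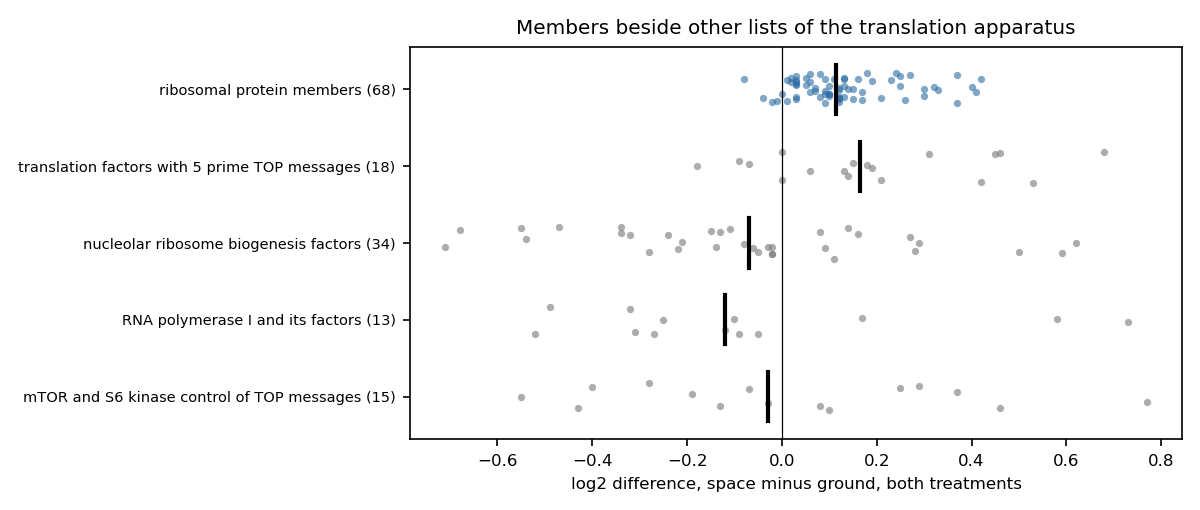
Log2 difference, space minus ground over both treatments (x axis), of each gene (points) in the ribosomal protein members and in 4 related lists (rows, number of genes in brackets), with the median of each as a black bar. The members form a narrow cloud around 0.112. The list of TOP translation factors, which also holds other TOP genes, forms a wider one around 0.166. The assembly and RNA polymerase I lists centre below 0, as do all probe sets (median −0.044).

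Among nanoceria-treated cells alone, space minus ground gave the members a median of 0.107, with 56 of 68 above 0, against 41.4% of all probe sets. With equal array medians 45 were above 0. Only Rpl39 had an unadjusted p under 0.05 (0.51 ± 0.15, SE, limma adjusted p = 0.458), against 5.02% of all probe sets higher in space. Both space arrays lay above all 3 ground arrays for 18 of the 68 members, against 13.6% of all probe sets. Next by p came Rpl5 (0.37 ± 0.17), Rpl22 (0.47 ± 0.22) and Rps27 (0.48 ± 0.23). Below 0 were Rps2 (−0.14 ± 0.17), Rpsa (−0.08 ± 0.14), Rpl18 (−0.07 ± 0.14) and Rplp0 (−0.06 ± 0.15). The median was 0.059 without space nanoceria replicate 2 or without ground nanoceria replicate 2, and 0.162 without ground nanoceria replicate 1, when 6 members had an unadjusted p under 0.05.

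In untreated cells, where space had a single array, the median was 0.097 with 59 of 68 above 0. Above 0 were 45.5% of all probe sets and 56.5% of the brightest 1 in 10, whose median was 0.043. The members' median was 0.204 without ground untreated replicate 1, 0.066 without ground untreated replicate 3, and 0.053 with 50 above 0 after cyclic loess. Rps3a and Rps6 had the smallest p among the higher members, at 0.52 ± 0.24 and 0.36 ± 0.20, and Rps24 and Rpl36 among the lower, at −0.18 ± 0.35 and −0.15 ± 0.30.

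Nanoceria was compared with untreated over both regimes in the same additive fit. The members lay on both sides of 0: the median was −0.021, and 30 of 68 were above 0, against 56% of all probe sets. This direction depended on scaling, with a median of −0.09 after cyclic loess and 0.003 with equal array medians. No member passed the adjusted threshold. At an unadjusted p under 0.05, 0 members were higher, against 3.77% of all probe sets, and only Rpl39 was lower, against 5.86%. Rpl39 differed by −0.35 ± 0.12 (SE, limma adjusted p = 0.456). Rps25, known to be needed for some internal initiation, had −0.40 ± 0.23, Rps3a −0.23 ± 0.14 and Rpl32 −0.24 ± 0.13. On the other side stood Rpl10a, a protein of the L1 stalk, at 0.30 ± 0.26, Rpl13 at 0.20 ± 0.12, Rps15 at 0.19 ± 0.17 and Rpl18 at 0.12 ± 0.11.

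On ground alone, nanoceria minus untreated gave a median of −0.022, with 30 of 68 above 0 against 55.5% of all probe sets. The median was −0.121 after cyclic loess and 0.018 with equal array medians. Leaving out 1 array gave −0.091 (ground nanoceria replicate 1), −0.064 (ground untreated replicate 3), 0.022 (ground nanoceria replicate 2) or 0.042 (ground untreated replicate 1). The members thus had no steady direction. Rpl39 was again the single member with an unadjusted p under 0.05, lower with nanoceria by −0.45 ± 0.15 (SE, limma adjusted p = 0.368), against 6.57% of all probe sets. Its 3 treated arrays (13.00, 12.92 and 12.77) lay below both untreated ones (13.42 and 13.28). The same 3 treated ground arrays enter its difference between regimes, so the opposite signs are not separate observations. Such complete separation was seen for 9 members lower, against 12% of all probe sets, and 7 higher, against 14.3%.

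Rpl32 (−0.32 ± 0.16), Rpl22 (−0.38 ± 0.22) and Rps24 (−0.44 ± 0.26) followed among the lower members. Among the higher ones were Rpl13 (0.27 ± 0.15), Rpl15 (0.28 ± 0.20), Rpl8, which lies near the peptidyl transferase centre (0.18 ± 0.15), and Rpl10a (0.53 ± 0.32). Rpl10a measured 10.87, 10.27 and 10.50 with nanoceria, against 10.49 and 9.54 without, and its difference was 0.05 without ground untreated replicate 3, the low array. On that array the muscle markers were also lowest, at a mean log2 intensity of 6.34 against 7.17 on the other untreated ground array and 7.60 to 8.11 on the treated ones. All 9 muscle markers, the dim Myf5 among them, were above 0 for nanoceria on ground, against 55.5% of all probe sets. So were all 6 fibroblast, 4 of 5 cardiac and 4 of 5 epithelial markers. Of the endothelial and immune markers, 2 of 5 each were above 0. The part of the muscle markers in the members' values was not tested.

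By part of the ribosome, of the 7 tunnel and exit proteins 6 were below 0 on ground, with a median of −0.135. Below 0 were 55.9% of all members and 44.5% of all probe sets. The treated ground arrays also enter the tunnel proteins' difference between regimes, so the opposite signs are not separate observations. The 4 measured proteins of the entry and decoding side were all above 0, with a median of 0.136. In some alternatives Rps23, Rps2 and Rps15 changed sign, whereas Rps3 and the 6 lower tunnel proteins did not. The P stalk gave 0.15 ± 0.15 for Rplp0, 0.13 ± 0.16 for Rplp2 and −0.01 ± 0.15 for Rplp1. None of these passed the test.

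In space, with 1 untreated array, nanoceria minus untreated gave a median of −0.031 with 27 of 68 above 0, against 51.9% of all probe sets. It was 0.045 with 49 above 0 without space nanoceria replicate 1, and −0.112 with 10 above 0 without space nanoceria replicate 2, so 1 array turned the sign. The 2 smallest p in each direction belonged to Rpl36 and Rps15 (0.27 ± 0.30 and 0.26 ± 0.30) and to Rps3a and Rpl4 (−0.35 ± 0.24 and −0.21 ± 0.19). The interaction of regime and treatment had a median of 0.002 with 34 of 68 above 0, and no member passed it. The median was 0.091 after cyclic loess and −0.045 with equal array medians, and it ran from −0.081 (without space nanoceria replicate 2) to 0.059 (without ground nanoceria replicate 1) when 1 array was left out. Its smallest p in each direction belonged to Rpl22 (0.48 ± 0.37) and Rpl36 (0.43 ± 0.38) and to Rpl10a (−0.65 ± 0.53) and Rpl7a (−0.36 ± 0.34).

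**Figure D4:**
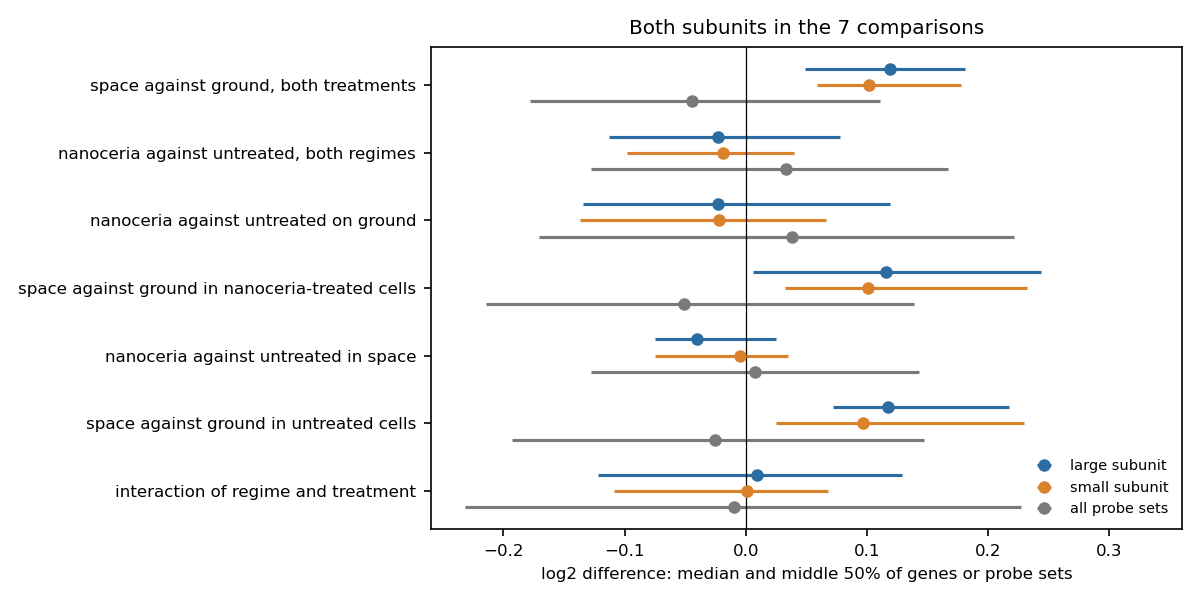
Median log2 difference (points) and middle 50% (bars) of the large subunit genes, the small subunit genes and all probe sets in the 7 comparisons (rows). The subunits share nearly the same position in each row, above all probe sets in the 3 space-minus-ground rows and near 0 in the nanoceria rows, where the sign over both regimes and on ground changes with scaling.

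The members that varied most over the arrays did so mainly on ground. Rps25 (SD 0.414) measured 10.38 and 10.65 in nanoceria-treated and 10.77 in untreated space cells, against 10.62, 9.97 and 9.58 in nanoceria-treated and 10.72 and 10.36 in untreated ground cells. Rpl35a (SD 0.342), a Diamond-Blackfan gene, measured 12.26, 12.47 and 12.40 in the 3 space samples, against 12.20, 11.73 and 11.71 in nanoceria-treated and 12.60 and 11.89 in untreated ground cells. Rps24 (SD 0.309) ran from 11.20 to 11.50 in space, against 10.75 to 11.76 on ground. Rpl10a (SD 0.396) and Rps27 (SD 0.302) complete the 5. For each of them the ground values spanned more than the space values, with 5 arrays against 3.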

How the data were processed

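Each of the 8 samples gave 1 rat Clariom S Pico array. The deposited table holds linear intensity values, which per the submitters' processing notes are the authors' RMA output; other settings are not given in the sources used here. Per the labels, the array build is Rnor 6.0. Values ran from 8.63 to 19506, and log2 was taken with no pseudocount. No detection measure was used, and the number of arrays limits the precision. A limma 3.58.1 fit (R 4.3.3) covered all 23188 probe sets with a 0.05 threshold after Benjamini-Hochberg adjustment. The pooled comparisons came from a model with regime and treatment as additive terms (5 residual degrees of freedom). A fit with 1 mean per group gave the others (4 residual degrees of freedom). Both assume that the lone array of untreated space cells varies like the rest.

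The members and lists were chosen with earlier results of these data known. Named members are those of the role lists, the smallest p in each direction (4 in each of the first 4 comparisons and 2 in each of the other 3), and the 5 with the largest SD over arrays. Up to 3 genes with the smallest p were named from each related list. Nothing in the labels says that replicates come from separate cultures. The p-values then measure only the spread between these samples, which may be technical. Scaling, filter, variance, weight and block alternatives and the leaving out of each array are given in the closing section. Promoter windows come from RefSeq GRCr8. Same-numbered arrays did not deviate together, so numbers were not used to pair them.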

Additional observations from a re-analysis of the deposited data

Results flagged for a closer look

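For 2 members the arrays of one stratum all moved one way and those of the other all moved the opposite way. The share of all probe sets with this pattern is not at hand, so the 2 cannot be set against a background. The interaction was tested and did not pass. Rpl8 measured 13.24 and 13.27 in nanoceria-treated against 13.31 in untreated space cells, a difference of −0.06, and 13.41, 13.27 and 13.24 in nanoceria-treated against 13.03 and 13.22 in untreated ground cells, a difference of 0.18. The difference of these effects was −0.24 (limma adjusted p = 1.0). Rpsa differed between space and ground by −0.08 in nanoceria-treated and by 0.04 in untreated cells. The difference of these effects was −0.12 (limma adjusted p = 1.0). In both cases the untreated space arm is 1 array, against which complete separation is common. For nanoceria in space, 7979 of 23188 probe sets were wholly higher and 7300 wholly lower.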

How the results depend on the processing

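No member passed the adjusted threshold in any of the 16 alternatives that refit the data, and averaging probe sets of a symbol changed nothing, since each member has 1. The smallest adjusted p of a member was 0.179, with array weights among treated cells. The members' median for space against ground stayed above 0 in all 16, from 0.056 with the replicate block to 0.143 with array weights, and from 0.072 to 0.161 when 1 array was left out. The number above 0 ran from 56 to 66. Its count of members with an unadjusted p under 0.05 was 5, against 0 with the replicate block, 3 for the mean of the within-treatment differences and 11 with array weights. The large minus small subunit difference (0.017) was −0.008 with the replicate block, 0.039 for the mean of the within-treatment differences, and from 0 to 0.065 when 1 array was left out. In untreated cells the median ran from 0.066 to 0.204 when 1 array was left out, and was 0.053 after cyclic loess. For nanoceria in space it ran from −0.112 to 0.045 when 1 array was left out. The nanoceria median over both regimes was below 0 in 11 of 16 alternatives, and on ground in 12 of 15. Some alternatives cannot move these medians or the signs, so such counts overstate how many separate checks were made. The variance setting and the filter to the brighter 2 in 3 probe sets gave the reported medians again. For nanoceria on ground, leaving out any space array also gave −0.022 again. Of 37 named members, 25 kept their sign for space against ground in every alternative, Rpl39 from 0.35 to 0.51. Same-numbered arrays correlated at −0.35 to −0.01 in their deviations from group means, so the replicate block rests on numbers that do not pair the arrays. Without a signal over background measure, dim probe sets such as Rps4y2 (mean log2 intensity 6.00) cannot be judged.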

Other observations

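Genes of ribosomal proteins outside the symbol rule were measured for 5 of 11 listed. Rpl22l1, the paralogue that can replace Rpl22, measured 9.62 and 9.59 in nanoceria-treated and 9.80 in untreated space cells, against 9.45, 8.34 and 7.58 in nanoceria-treated and 9.66 and 8.86 in untreated ground cells. The ground arrays spread widely and 1 of them reached the space values. Its difference between space and ground was 0.93 ± 0.39 (SE, limma adjusted p = 0.51), against 0.30 ± 0.18 for Rpl22 itself. Rpl3l, the paralogue of Rpl3 known from mature heart and skeletal muscle, measured 5.34 and 5.25 in nanoceria-treated and 5.58 in untreated space cells, against 5.82, 5.64 and 5.83 in nanoceria-treated and 5.43 and 5.53 in untreated ground cells. Among treated cells it differed by −0.47 ± 0.15 (SE, limma adjusted p = 0.481), with no overlap between the arrays. Such complete separation, with space lower, was seen for 4074 of 23188 probe sets. With a mean log2 intensity of 5.55, Rpl3l is dim and cannot be judged against background here. Rps27l, a p53 target in human cells, differed between space and ground by 0.20 ± 0.20.

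On ground, several assembly factors had larger nanoceria differences than any member. Gnl3 had −1.35 ± 0.23 (SE, limma adjusted p = 0.144), Nop58 −0.98 ± 0.25 and Riok1 −0.94 ± 0.25, while over the 34 measured factors the median was 0.119 with 21 above 0.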
